A study of Mus musculus with 15 samples.

Results

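Acod1, Slc13a3, Slc13a5, Slc25a1 and Clybl are 5 genes around itaconate, out of 35142 genes measured in cultured mouse cerebellar cells exposed to IL-12. Acod1 encodes the enzyme that makes itaconate, Slc13a3 and Slc13a5 encode carriers of dicarboxylates and citrate at the cell surface, Slc25a1 encodes the mitochondrial citrate carrier, and Clybl encodes an enzyme that acts on a breakdown product of itaconate. The 5 genes were chosen by symbol, with their changes between these same cultures already known. Their levels and fold changes are therefore given as a description, with no test, and nothing is read from them about how unusual the genes are. All 5 passed the filter on low values, which left 15360 genes for testing.

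The study asked how neurons respond to IL-12. Its cultures came from dissociated cerebella of newborn C57BL/6 wt pups, and were kept for 14 days in vitro, with no sorting step described. Then 5 cultures were left unstimulated, 5 received Recombinant Murine IL-12p70 at 30 ng/ml and 5 received it at 100 ng/ml, each for 18 h. No group carried a deletion or transgene, and no vehicle or other control protein was among the samples analysed here. RNA of each culture was sequenced as a stranded poly(A) library, with 25746096 to 38435850 estimated reads per culture over all transcripts. The labels do not say whether the 5 replicates of a group came from separate litters or preparations, so p-values measure only the spread between these cultures.

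Itaconate is made in the mitochondrion by removal of a carboxyl group from cis-aconitate, an intermediate of the citric acid cycle. Macrophages and microglia are the cells best known to switch on Acod1, after Toll-like receptor or interferon signals. Itaconate inhibits succinate dehydrogenase and modifies cysteines of proteins such as KEAP1, the repressor of the antioxidant factor NRF2. It is degraded through itaconyl-CoA and citramalyl-CoA, which CLYBL cleaves. SLC13A3 is a sodium-coupled dicarboxylate carrier that astrocytes and kidney cells are known for, and it accepts itaconate.

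The sequences shown here are the bases just before Acod1 and Slc13a3, whose levels followed the same order of groups, and the coding exon that separates the main transcripts of Slc13a3. Acod1 (ENSMUSG00000022126) lies on the plus strand at chr14:103284413-103294009 of GRCm39. Slc13a3 (ENSMUSG00000018459) lies on the minus strand at chr2:165246948-165315268. The upstream bases come from the RefSeq promoter table of GRCm38.p6, and each was found once on its chromosome in GRCm39. They are printed 5′ to 3′ in the direction of transcription up to the annotated gene start, at chr14:103284198-103284412 for Acod1 and at chr2:165315269-165315367 for Slc13a3. Capitals mark a match to TGANNNNGC, the core of the motif bound by NRF2.
Acod1 upstream: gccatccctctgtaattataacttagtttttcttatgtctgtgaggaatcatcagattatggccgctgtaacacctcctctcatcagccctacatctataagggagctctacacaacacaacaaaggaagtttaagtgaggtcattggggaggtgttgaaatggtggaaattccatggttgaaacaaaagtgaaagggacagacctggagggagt
Slc13a3 upstream: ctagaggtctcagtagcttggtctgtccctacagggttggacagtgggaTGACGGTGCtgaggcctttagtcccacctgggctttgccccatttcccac
Slc13a3 exon 6: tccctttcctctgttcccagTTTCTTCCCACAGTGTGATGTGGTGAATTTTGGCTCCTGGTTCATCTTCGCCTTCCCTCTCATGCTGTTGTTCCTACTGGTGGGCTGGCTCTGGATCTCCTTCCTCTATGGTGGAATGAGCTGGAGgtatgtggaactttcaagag

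The exon on the last line is at chr2:165272128-165272253, in capitals, with 20 intron bases on either side in lower case. It has 126 bases, all of them coding, which is 42 codons without a shift of the reading frame. Slc13a3-201 holds it and Slc13a3-202 lacks it, and the annotation gives no other difference between their exons. Within 250 bases before the RefSeq start, Acod1 held no match on either strand to TTCNNNGAA (a STAT motif), TGANTCA (AP-1), CACGTG, TGANNNNGC, the interferon regulatory factor motif or the kappaB consensus. Slc13a3 held the match to TGANNNNGC shown in capitals and a match to CACGTG that runs into the annotated transcript. Of all 32851 RefSeq promoter windows of this length, 35.2% held TGANNNNGC, 7.3% the kappaB consensus, 7.0% TTCNNNGAA, 6.7% TGANTCA, 6.0% CACGTG and 3.0% the interferon regulatory factor motif. A match describes letters only, and its absence says nothing about a factor.

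Acod1, the itaconate synthase gene, was low without IL-12, higher at 30 ng/ml and several times higher at 100 ng/ml. In CPM, which are counts scaled to the size of each library, the unstimulated cultures gave 4.34, 2.87, 3.32, 2.65 and 2.90. The cultures at 30 ng/ml gave 4.72, 4.62, 5.17, 6.12 and 4.39 CPM, and those at 100 ng/ml gave 17.6, 20.9, 17.0, 15.5 and 15.3 CPM. The 3 groups did not overlap, although the highest unstimulated culture (4.34) stood next to the lowest at 30 ng/ml (4.39). These levels rested on 74 to 166, 124 to 178 and 461 to 560 estimated reads per culture. The group means were 3.22 ± 0.67, 5.00 ± 0.68 and 17.2 ± 2.24 CPM (SD, n = 5 each). The fitted log2 fold change against unstimulated was 0.62 (SE 0.14) at 30 ng/ml and 2.40 (SE 0.13) at 100 ng/ml, or 1.54-fold and 5.28-fold. Between 30 and 100 ng/ml it was 1.78 (SE 0.12).

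Slc13a3, the dicarboxylate carrier gene, followed the same order of groups with a smaller fold change. Its CPM was 7.55, 9.11, 8.62, 7.06 and 6.84 without IL-12. It was 10.4, 9.84, 10.4, 10.1 and 10.3 at 30 ng/ml and 24.5, 23.2, 24.1, 22.1 and 22.2 at 100 ng/ml. In CPM, no culture of one group overlapped with another group. The share of all genes with such a separation was not counted, so nothing is read from it for Acod1 or Slc13a3. The spread at 30 ng/ml was narrow, with an SD of 0.23 CPM around a mean of 10.2. The log2 fold change was 0.38 (SE 0.07) at 30 ng/ml and 1.57 (SE 0.07) at 100 ng/ml, or 1.30-fold and 2.96-fold, and 1.19 (SE 0.07) between the concentrations. Both comparisons with unstimulated cultures use the same 5 controls.

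**Figure D1:**
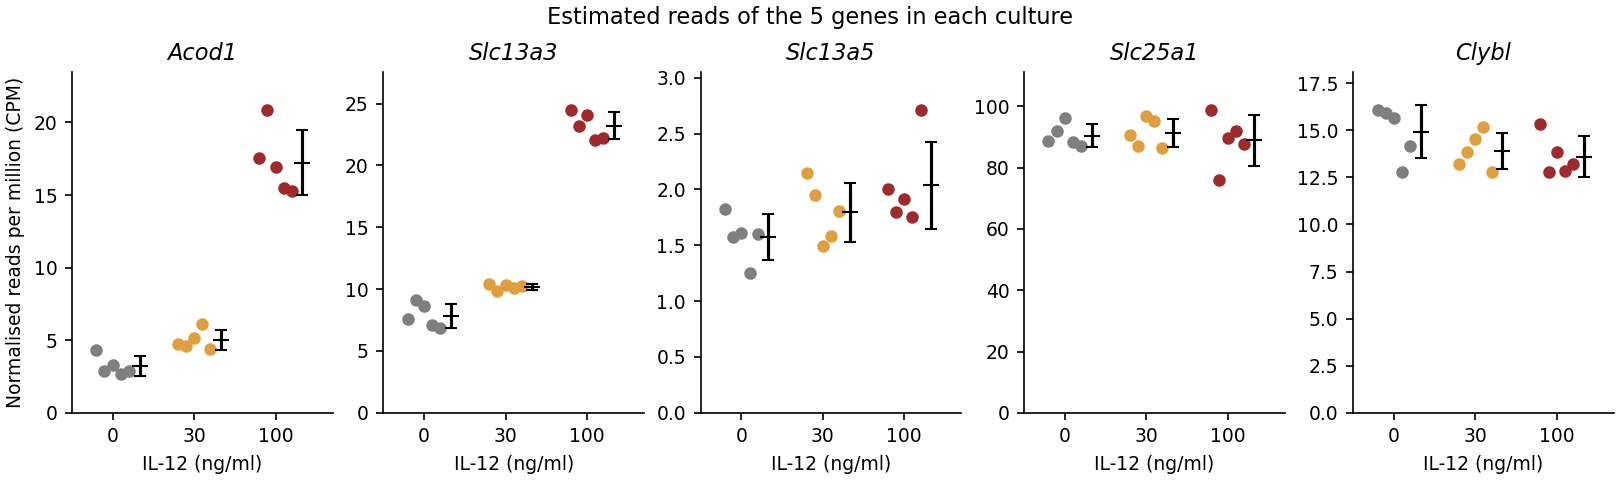
Normalised CPM (vertical axis from 0 in each panel) of Acod1, Slc13a3, Slc13a5, Slc25a1 and Clybl in each of 5 cultures (points) at 0, 30 and 100 ng/ml IL-12, with the mean and SD in black. Acod1 and Slc13a3 stood apart at 100 ng/ml, at 15.3 to 20.9 and 22.1 to 24.5 CPM, whereas the groups of the other 3 genes overlapped. The share of all genes whose groups stood apart was not counted, so nothing is read from this.

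Slc13a5, the gene of the surface citrate carrier, was near the limit of what was measured, with 35 to 93 estimated reads per culture. It gave 1.83, 1.58, 1.61, 1.25 and 1.61 CPM without IL-12, 2.15, 1.95, 1.50, 1.58 and 1.81 at 30 ng/ml, and 2.01, 1.80, 1.91, 1.75 and 2.71 at 100 ng/ml. The groups overlapped, and the log2 fold change was 0.18 (SE 0.16) at 30 ng/ml and 0.37 (SE 0.15) at 100 ng/ml. Without replicate 5 at 100 ng/ml, the highest culture, the latter was 0.24.

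Slc25a1, which carries citrate out of mitochondria, was the most abundant of the 5 genes and hardly differed between groups. Its mean was 90.5 ± 3.75, 91.3 ± 4.67 and 88.9 ± 8.28 CPM (SD, n = 5) at 0, 30 and 100 ng/ml. The lowest and highest of all 15 cultures, 76.1 and 98.8 CPM, were both at 100 ng/ml. The log2 fold change was 0.01 (SE 0.06) and -0.03 (SE 0.06). Clybl, the citramalyl-CoA lyase gene of itaconate breakdown, averaged 14.9 ± 1.41, 13.9 ± 0.97 and 13.6 ± 1.06 CPM. All 3 groups of Clybl overlapped, between 12.8 and 16.1 CPM, and the log2 fold change was -0.10 (SE 0.07) at 30 ng/ml and -0.13 (SE 0.07) at 100 ng/ml.

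Against unstimulated cultures, 9.77% of all tested genes passed the threshold (edgeR, FDR under 0.05) at 100 ng/ml and 7.87% at 30 ng/ml, and 0.579% passed between the concentrations. In each of these 3 comparisons 2 of the 5 genes, Acod1 and Slc13a3, were among them. On log2(TPM + 0.5) with limma, Slc13a3 did not pass at 30 ng/ml or between the concentrations. Since the genes were chosen with those changes known, nothing is read from this count. The shares over all genes also move with single cultures: without 1 culture, the 1500 calls at 100 ng/ml became 940 (unstimulated replicate 5) at the lowest and 2932 (replicate 2 at 100 ng/ml) at the highest, and the 1209 calls at 30 ng/ml became 673 without unstimulated replicate 3. By size alone, the log2 fold change of Acod1 at 100 ng/ml was number 7 from the top of 15360, and that of Slc13a3 number 13. At 30 ng/ml they were number 84 and number 313. These ranks come from the values known when the genes were chosen, and nothing is read from them either.

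Levels between genes are compared per length, in TPM, the length-scaled values of the files. In unstimulated cultures the order was Slc13a5 (1.03 ± 0.26), Acod1 (2.01 ± 0.46), Slc13a3 (8.35 ± 1.94), Clybl (21.8 ± 2.37) and Slc25a1 (129 ± 5.6 TPM, SD, n = 5). No neighbours in that order overlapped, and the median of all tested genes was 16.7 TPM. At 100 ng/ml the order was the same, with Acod1 at 10.6 ± 1.50 and Slc13a3 at 17.4 ± 2.11 TPM. Slc13a3, at 14.1 to 19.9 TPM, then overlapped with Clybl, at 18.4 to 21.2 TPM. Unlike its CPM, the TPM of Slc13a3 overlapped between unstimulated cultures, at 6.155 to 10.2, and those at 30 ng/ml, at 10.03 to 11.73. The TPM of Slc13a3 includes short retained-intron transcripts, and its coding transcripts alone gave 3.58 ± 0.39, 4.70 ± 0.25 and 11.0 ± 0.45 TPM at 0, 30 and 100 ng/ml. The coding transcripts did not overlap between unstimulated cultures, at 3.1 to 4.046 TPM, and those at 30 ng/ml, at 4.409 to 4.981 TPM. At 100 ng/ml the range of the coding transcripts, 10.5 to 11.5 TPM, overlapped with Acod1, at 9.48 to 13.2 TPM, and lay below Clybl.

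The transcripts of Slc13a3 did not contribute equally. Slc13a3-202, without exon 6, held 56.3% of the gene's estimated reads over all cultures, and Slc13a3-201, with the exon printed above, held 36.7%. Slc13a3-202 averaged 5.03 ± 0.54, 5.56 ± 1.08 and 12.6 ± 1.19 CPM at 0, 30 and 100 ng/ml. Slc13a3-201 averaged 1.97 ± 0.99, 3.57 ± 0.93 and 9.53 ± 1.38 CPM. The ratio of the means at 100 ng/ml and without IL-12 was 2.50 for Slc13a3-202 and 4.84 for Slc13a3-201. As a share of the gene's reads, Slc13a3-201 took 23.6, 40.2, 21.8, 17.3 and 19.1% without IL-12. It took 32.4, 39.1, 27.7, 49.9 and 26.5% at 30 ng/ml and 40.5, 43.3, 45.0, 32.6 and 43.6% at 100 ng/ml. Replicate 2 of the unstimulated cultures lay within the range at 100 ng/ml, and the other 4 lay below every culture at 30 or 100 ng/ml. These shares are estimates from single-end reads of 100 bases and have no test. The files give the transcripts 3524 and 3131 bases, against 3642 and 3516 in the annotation used here, so differences at their ends may enter the estimate as well as the exon.

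**Figure D2:**
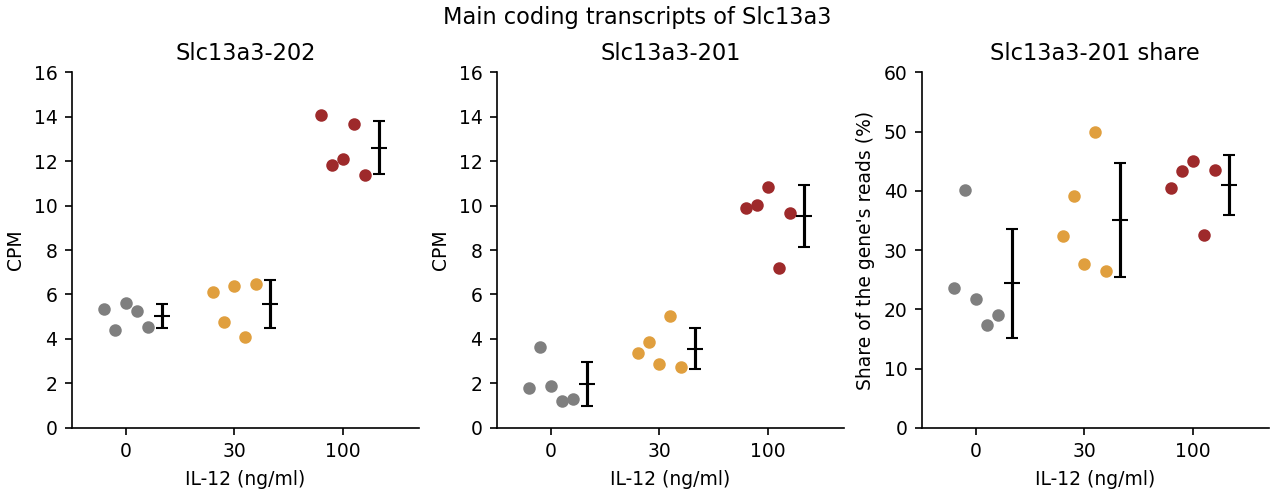
CPM of Slc13a3-202 and Slc13a3-201 and the share of the gene's reads held by Slc13a3-201 (percent), for each of 5 cultures (points) at 0, 30 and 100 ng/ml IL-12, with the mean and SD in black. Both transcripts were higher at 100 ng/ml, and the share of Slc13a3-201 was 32.6 to 45.0% there against 17.3 to 40.2% without IL-12.

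Acod1 has 1 transcript in the files. Slc13a5 and Clybl were carried mainly by a single coding transcript, Slc13a5-201 with 78.0% and Clybl-201 with 95.0% of the reads. The second of Slc13a5, Slc13a5-205 (8.67%), ranged from 0 to 32.9, 45.5 and 41.7% of the gene's reads in the 3 groups. Slc25a1-201, the coding transcript, held 77.9% and the retained-intron transcript Slc25a1-202 held 21.4% of the gene's reads.

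Genes near Acod1 and Slc13a3 on the chromosome gave smaller values. Kctd12, 64.3 kb before Acod1, rose by 0.33 on the log2 scale at 100 ng/ml (SE 0.10, FDR = 0.042). Trp53rka, 16.2 kb from Slc13a3, had 0.08 (SE 0.05, FDR = 0.37), and Ocstamp on its other side did not pass the filter. The antisense gene Gm14437, which overlaps Slc13a3, had 0 reads in every culture.

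Genes of the same metabolic route as the synthase were examined as well. All lists of related genes were drawn up with earlier results of these data known, so their counts are no independent evidence. Of 42 listed enzymes and carriers of citrate supply, the citric acid cycle, transport and itaconyl-CoA or propionate breakdown, 40 were tested. At 100 ng/ml 2 rose and 0 fell, at 30 ng/ml 1 rose and 0 fell, and 0 passed between the concentrations. These counts stand beside 9.77%, 7.87% and 0.579% of all genes, and nothing is read from them about the route. The lists within it hold 8 to 13 tested genes, so a count of 0 in one of them is not read as a result.

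None of the 9 genes of citrate and isocitrate supply passed at either concentration, and their median log2 fold change at 100 ng/ml was 0.04, against 0.00 over all genes. Of 13 citric acid cycle genes, Ogdh and Dlst passed. Ogdh, a subunit of the oxoglutarate dehydrogenase complex, had 174 ± 8.93, 274 ± 10.9 and 286 ± 10.2 CPM at 0, 30 and 100 ng/ml. It rose by 0.66 on the log2 scale (SE 0.04, FDR = 2.55e-07) at the lower and 0.72 (SE 0.04, FDR = 1.62e-08) at the higher concentration, and did not differ by the test between the 2 (0.06, SE 0.04, FDR = 0.61). Dlst, of the same complex, rose by 0.13 at 100 ng/ml (SE 0.03, FDR = 0.016). Sdha, the catalytic subunit of the succinate dehydrogenase that itaconate inhibits, had -0.05 (SE 0.04, FDR = 0.38).

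Of 10 listed carriers and vesicle proteins, 8 were tested and 0 passed in any comparison. The related carriers Slc13a1 and Slc13a2 stayed under the filter, at means of at most 0.29 and 0.14 CPM. Abcg2, an exporter reported to pass itaconate, had a log2 fold change of -0.12 at 30 ng/ml (SE 0.07, FDR = 0.34) and 0.16 at 100 ng/ml (SE 0.07, FDR = 0.16). Of 10 genes of breakdown, none passed. Sugct, which can attach coenzyme A to itaconate, had -0.21 at 100 ng/ml (SE 0.08, FDR = 0.11), and Auh, the hydratase that acts before Clybl, had -0.07 (SE 0.04, FDR = 0.33). Mmut, the vitamin B12-dependent mutase that itaconyl-CoA is known to disturb, had 0.16 at 30 ng/ml (SE 0.05, FDR = 0.052) and 0.14 at 100 ng/ml (SE 0.05, FDR = 0.090).

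**Figure D3:**
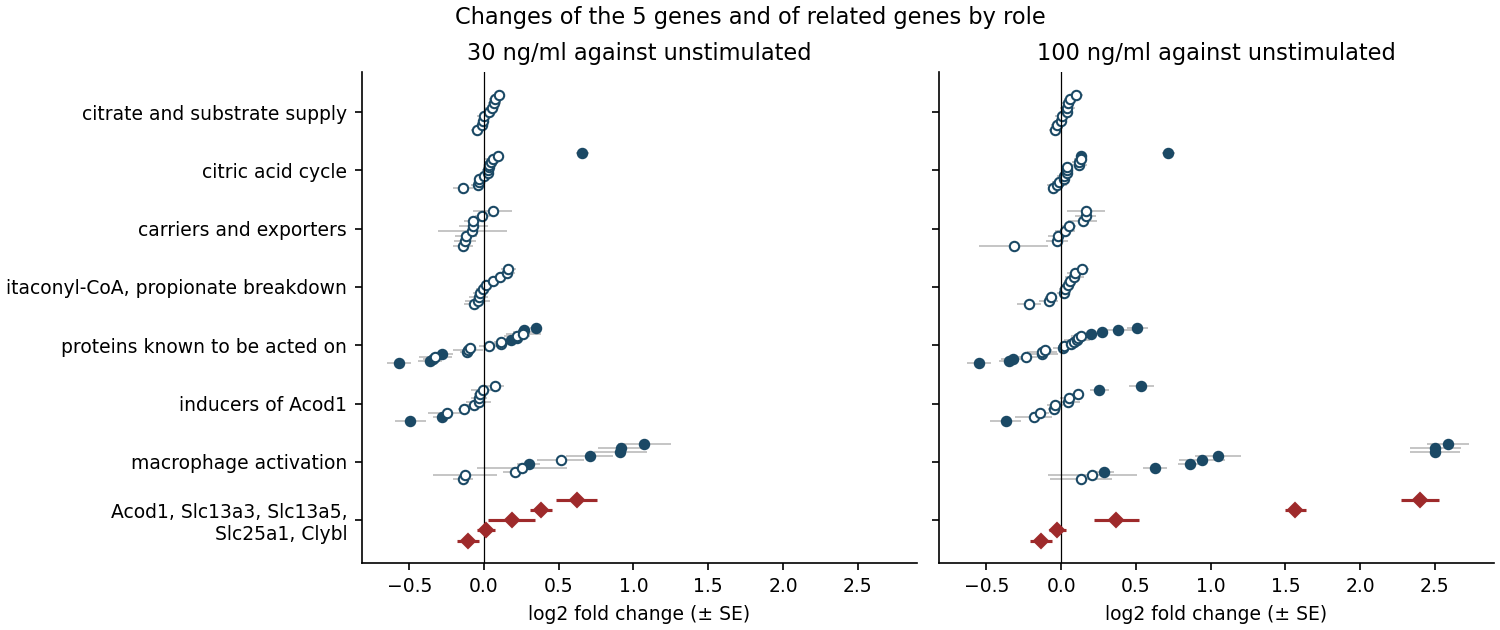
Fitted log2 fold change against unstimulated (horizontal axis, bars are SE) at 30 ng/ml (left) and 100 ng/ml (right) for the 5 genes (red, from top to bottom Acod1, Slc13a3, Slc13a5, Slc25a1 and Clybl) and for 78 related genes by role (blue, filled where the FDR was under 0.05). At 100 ng/ml the first 4 roles held 2 filled points of 40, and macrophage activation held 8 of 10. Over all genes 9.77% passed there. The highest point of macrophage activation at 100 ng/ml, 2.59, was Fpr1, which passed the filter on low values through the stimulated cultures. All 7 lists were drawn up with earlier results of these data known. Of the 16 macrophage activation genes, 10 were tested.

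Genes of proteins that itaconate is known to act on, and of the responses that follow from them, moved in both directions. Of 19 listed, 18 were tested, of which 4 rose and 3 fell at 100 ng/ml and 5 rose and 4 fell at 30 ng/ml, beside 9.77% and 7.87% of all genes in either direction. Keap1 (log2 fold change 0.09, SE 0.05, FDR = 0.25) and Nfe2l2, the gene of NRF2 (0.02, SE 0.04, FDR = 0.84), did not pass at 100 ng/ml. Txnrd1 and Srxn1, both known targets of NRF2, rose at both concentrations. Txnrd1, a thioredoxin reductase, gave 161 ± 4.61, 204 ± 5.64 and 195 ± 4.53 CPM at 0, 30 and 100 ng/ml, with a log2 fold change of 0.34 (SE 0.04, FDR = 2.74e-05) and 0.27 (SE 0.04, FDR = 1.20e-04). Srxn1, a sulfiredoxin, had 0.27 (SE 0.03) and 0.20 (SE 0.03). Other NRF2 targets of the list did not follow throughout. Hmox1 (0.14, SE 0.07, FDR = 0.21) and Nqo1 (0.11, SE 0.09, FDR = 0.48) did not pass at 100 ng/ml, nor at 30 ng/ml (FDR = 0.81 and 0.12). Gclc and Gclm passed at 30 ng/ml (0.18 and 0.22, FDR = 0.014 and 0.047) but not at 100 ng/ml (0.11 and 0.01, FDR = 0.11 and 0.92). Slc7a11 passed at 100 ng/ml (0.38, SE 0.12, FDR = 0.047) but not at 30 ng/ml (0.26, SE 0.12, FDR = 0.19). Hmox1, Nqo1, Gclc, Gclm and Slc7a11 were named after their values were seen. Nfkbiz, the gene of IkappaB-zeta, rose by 0.26 (SE 0.07) at 30 ng/ml and 0.51 (SE 0.07) at 100 ng/ml. Ldha, of glycolysis, fell from 486 ± 36.3 to 328 ± 45.6 and 332 ± 22.2 CPM (log2 fold change -0.57, SE 0.08, FDR = 5.19e-04 and -0.55, SE 0.08, FDR = 3.87e-04). None of the 18 passed between 30 and 100 ng/ml. Oxgr1, a receptor that itaconate can engage, did not pass the filter, at 0.61, 0.44 and 0.37 CPM on average.

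Among 10 inducers of Acod1, 2 rose and 1 fell at 100 ng/ml, and 0 rose and 2 fell at 30 ng/ml, beside the same 9.77% and 7.87%. Tlr2, a receptor for bacterial lipoproteins, had 84.6 ± 10.5, 84.3 ± 9.54 and 123 ± 7.45 CPM in the 3 groups. It rose at 100 ng/ml (0.54, SE 0.08, FDR = 6.84e-04) with no call at 30 ng/ml (-0.01, SE 0.08, FDR = 0.98), and it differed between the concentrations (0.54, SE 0.08, FDR = 0.0043). Myd88, the adaptor of Toll-like receptors, rose by 0.26 at 100 ng/ml (SE 0.06, FDR = 0.015). Irf8, a transcription factor of the myeloid lineage, fell at both concentrations (-0.49, SE 0.10, FDR = 0.0076 at 30 ng/ml and -0.37, SE 0.10, FDR = 0.030 at 100 ng/ml). Irf1, a known activator of Acod1, had 0.05 at 100 ng/ml (SE 0.06, FDR = 0.64).

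The list of macrophage activation genes, like the other lists, was drawn up with earlier results of these data known. Its counts are therefore no independent evidence of a direction. Of 16 genes, 10 were tested, of which 8 rose at 100 ng/ml, 5 rose at 30 ng/ml and 6 were higher at 100 than at 30 ng/ml, with 0 lower in any of the 3 comparisons. Over all genes 9.77%, 7.87% and 0.579% passed in these comparisons. The median log2 fold change of the 10 was 0.41 and 0.90 at the lower and higher concentration, against 0.00 over all genes in both. Fpr1, a receptor for formyl peptides, gave 0.88 ± 0.08, 1.68 ± 0.24 and 5.38 ± 0.87 CPM, with a log2 fold change of 0.91 (SE 0.15, FDR = 0.0017) and 2.59 (SE 0.14, FDR = 2.74e-09). It passed the filter on low values through the stimulated cultures, since its unstimulated range was 0.82 to 1.02 CPM. Fpr1 is included in the counts and medians above. Saa3, an acute-phase serum amyloid gene, gave 3.93 ± 0.63, 7.45 ± 1.95 and 22.4 ± 3.54 CPM, with 0.91 (SE 0.18, FDR = 0.0050) and 2.50 (SE 0.17, FDR = 4.82e-08). Marco, a scavenger receptor of macrophages, gave 5.64 ± 1.77, 11.8 ± 2.18 and 31.8 ± 3.61 CPM, with 1.07 (SE 0.18, FDR = 0.0015) and 2.50 (SE 0.17, FDR = 4.82e-08). Tnfaip2 rose by 0.30 (SE 0.08, FDR = 0.024) and 0.86 (SE 0.08, FDR = 1.98e-06). The 6 genes under the filter were Il1b, Il6, Nos2, Il10, Il12b and Cxcl2, with group means of at most 0.79 CPM.

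By pattern over the 15 cultures, Acod1 and Slc13a3 had a Pearson r of 0.98 with each other. With the 5 genes themselves left out, the protein-coding gene most like each of them was Fpr1, with r = 0.98 for Acod1 and 0.97 for Slc13a3. Fpr1 had passed the filter on low values through the stimulated cultures. After Fpr1, the genes most like Acod1 were Saa3 (0.96), Slc31a2 (0.95), Tnfaip2 (0.95) and Nfkbia (0.93). Those most like Slc13a3 were Slc31a2 (0.95), Marco (0.95), Saa3 (0.94) and Nfkbia (0.93). Slc31a2 is a copper transporter homologue and Nfkbia encodes an inhibitor of NF-kappaB. These correlations are descriptions over cultures that fall into groups by dose, and they carry no p. Like patterns came with unlike sizes, since Slc31a2 went from 33.1 ± 1.43 to 44.4 ± 0.99 CPM at 100 ng/ml (log2 fold change 0.42, SE 0.04), whereas Acod1 had 2.40.

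**Figure D4:**
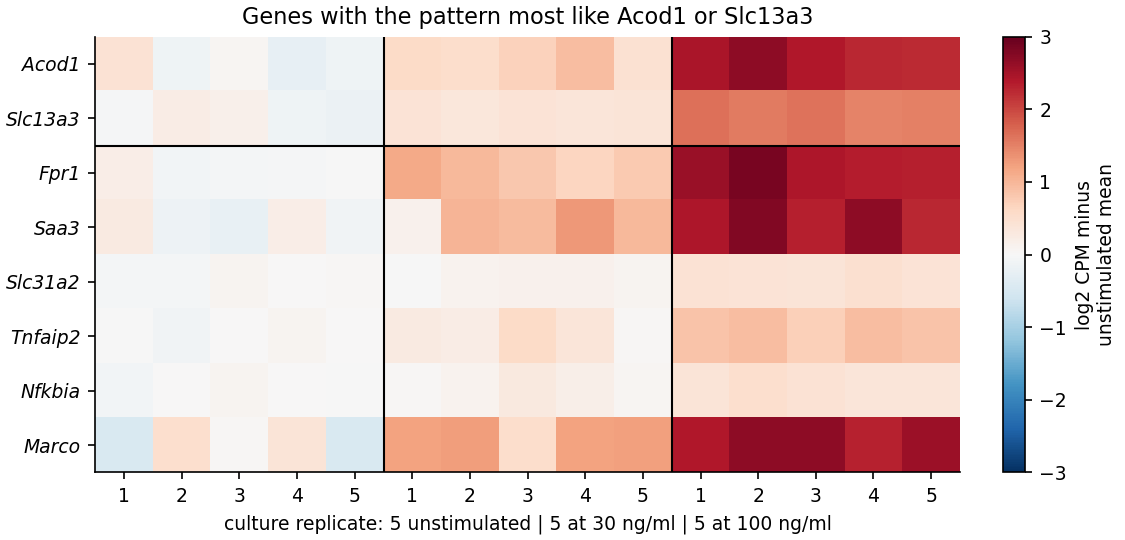
Log2 CPM of Acod1, Slc13a3 and the 6 genes most like either of them, minus the unstimulated mean (colour, from -3 blue to 3 red), with 1 column per culture in the order unstimulated, 30 ng/ml and 100 ng/ml. Fpr1, Saa3 and Marco reached differences as large as that of Acod1, whereas Slc31a2 and Nfkbia, at 0.42 and 0.41 in the fit, kept the pattern at a smaller size.

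The labelled cell type is neurons, and markers of other cells were also read in these cultures. In summed TPM, unstimulated cultures gave 8936 to 12620 for 14 microglia markers, 6633 to 9843 for the oligodendrocyte lineage, 3839 to 4298 for astrocytes and 259 to 330 for 15 cerebellar neuron markers. Of the neuron markers, Map2 averaged 84.9 TPM, Zic1 72.4 TPM and Tubb3 53.4 TPM. Rbfox3 (the gene of NeuN) averaged 3.42 TPM and Gabra6, of granule cells, 1.98 TPM. Sums over lists that hold different genes do not measure shares of cells. The marker lists too were chosen with earlier results of these data known. Markers of blood-derived myeloid cells summed to 19.9 to 29.1 TPM, of which Itgal held 22.5, while Ly6g and S100a9 were at 0 reads. T and NK cell markers summed to 3.67 to 6.77 TPM. In bulk RNA, fewer cells of a type and less RNA per cell cannot be told apart.

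The sum of the microglia markers was not higher in stimulated cultures. It was 7125 to 8905 TPM at 30 ng/ml and 8513 to 11197 at 100 ng/ml, a difference from unstimulated of -24.6% and -9.8% (exact permutation test, two-sided, n = 5, adjusted p = 0.071 and 0.35 over 18 tests). Before adjustment the p at 30 ng/ml was 0.0079 (exact permutation test), the smallest that 5 against 5 cultures allow. Among the 13 that were tested one by one, 9 fell at 30 ng/ml and 0 passed at 100 ng/ml. Of all genes 7.87% and 9.77% passed in these comparisons. Per 1000 TPM of microglia markers, Acod1 had 0.19 ± 0.058 TPM without IL-12, 0.39 ± 0.038 at 30 ng/ml and 1.10 ± 0.21 at 100 ng/ml (SD, n = 5). These 3 ranges, 0.13 to 0.28, 0.35 to 0.43 and 0.85 to 1.39, did not overlap. Which cells carried the Acod1 reads was not tested.

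Astrocyte markers, set beside Slc13a3, summed to 4550 to 5308 TPM at 30 ng/ml and 4262 to 4718 at 100 ng/ml. That was 16.3% and 9.7% above unstimulated (exact permutation test, two-sided, n = 5, adjusted p = 0.071 and 0.095). The sum at 30 ng/ml again had the smallest possible p before adjustment, 0.0079 (exact permutation test). Of 11 markers, 4 rose at 30 ng/ml, and 2 rose and 1 fell at 100 ng/ml, beside 7.87% and 9.77% of all genes. Per 1000 TPM of astrocyte markers, Slc13a3 had 1.99 ± 0.40, 2.25 ± 0.20 and 3.81 ± 0.52 TPM. At 30 ng/ml this range, 1.96 to 2.45, overlapped with that of unstimulated cultures, 1.47 to 2.37, whereas 2.99 to 4.35 at 100 ng/ml lay above both. With the coding transcripts of Slc13a3 alone, the ratios were 0.86 ± 0.082, 0.97 ± 0.057 and 2.41 ± 0.16, again with overlap between unstimulated cultures and 30 ng/ml. The part of astrocytes or of any other cell type in the level of Slc13a3 was not tested.

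Over the other 7 marker lists, none of the 14 differences in summed TPM passed after adjustment, and 0.0079 is the smallest p that 5 against 5 cultures allow. The lowest adjusted p was 0.071, for endothelial markers at both concentrations (-24.1% and -25.0%), at sums of 18.2 to 32.5 TPM over all cultures. The oligodendrocyte lineage was -9.0% and -19.7% (adjusted p = 0.40 and 0.12, exact permutation test). Cerebellar neuron markers were 6.7% and -1.4% (adjusted p = 0.38 and 0.80, exact permutation test). Their sum hid unlike movements, since the median log2 fold change of the 13 tested was -0.485 and -0.204. Of these 13, 1 rose and 2 fell at 30 ng/ml, and 1 rose and 1 fell at 100 ng/ml. Over all genes 7.87% and 9.77% passed.

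**Figure D5:**
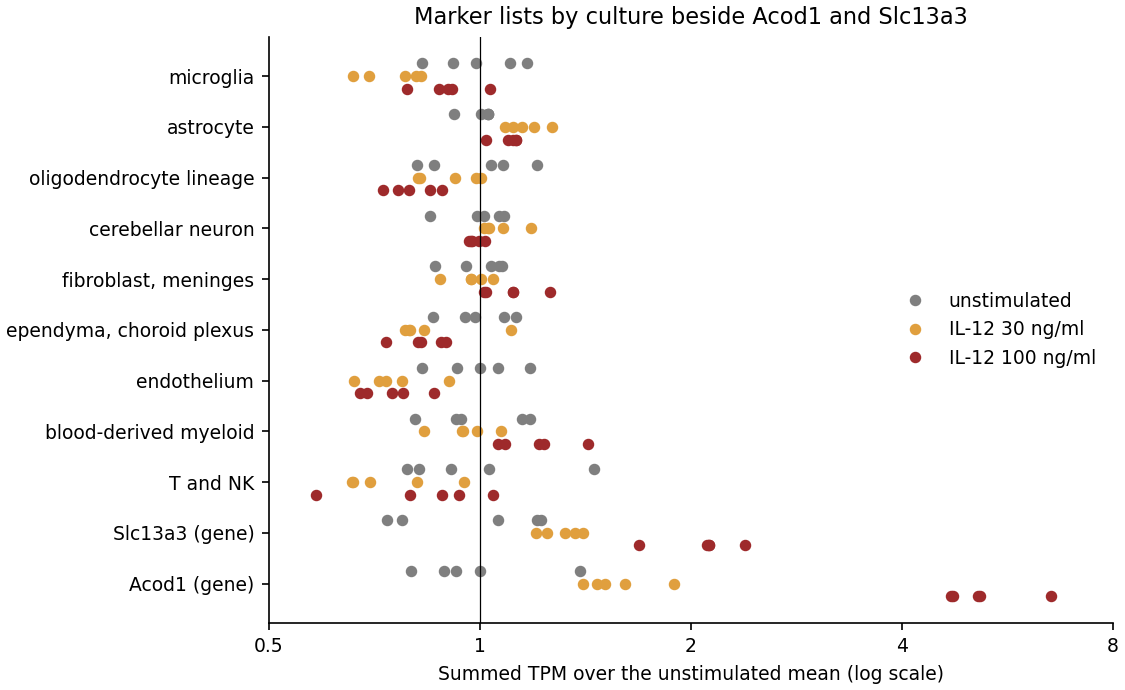
Summed TPM of each marker list, and the TPM of Slc13a3 and Acod1, in each culture (points, coloured by group), divided by the unstimulated mean (horizontal axis, log scale). Over both concentrations the marker sums were 0.58 to 1.43 times the unstimulated mean. At 100 ng/ml alone, Acod1 was 4.71 to 6.54 times and Slc13a3 1.69 to 2.39 times its own unstimulated mean. The coding transcripts of Slc13a3, which are not plotted, were 2.93 to 3.21 times theirs at 100 ng/ml. At 30 ng/ml these transcripts were 1.23 to 1.39 times theirs, within the range of the marker sums. Acod1 was at 2.825 to 3.811 TPM at 30 ng/ml, against an unstimulated mean of 2.013 TPM.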

How the data were processed

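Estimated counts and TPM of 121798 transcripts in each of 15 cultures were used as deposited by the authors. Per the labels and methods, reads were aligned with STAR 2.7.8a to GRCm39 and counted with featureCounts on GENCODE M26, but these values are per-transcript estimates of a program not given in the sources used here. The design had assumed counts per gene. Estimated counts of the 120537 transcripts found in GENCODE M39 were summed to 35142 genes and rounded. Transcripts not found held 0.677 to 0.712% of the 25746096 to 38435850 reads per culture. Genes that reached 1 CPM in 2 or more cultures were fitted with edgeR 4.0.16 (TMM, quasi-likelihood, 1 fit of 3 groups, Benjamini-Hochberg FDR under 0.05). Marker sums were compared by exact permutation (scipy 1.17.1). Replicate numbers gave no support for a pairing of cultures, and no pairing was used in the main fit. No 2 cultures of a group agreed within sampling noise. Scripts were tested on simulated data.

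The 5 genes, the 7 lists of related genes and the 9 marker lists were chosen with earlier results of these data known. Named were the 5 genes, up to 4 called genes per list with the lowest FDR at 100 ng/ml, 10 preset genes, the 5 most correlated genes for Acod1 and for Slc13a3, and transcripts with at least 5% of a gene's reads. Chromosomal neighbours and marker genes were added. Some of these genes are not reported here. Alternatives were DESeq2 1.42.0, RLE factors, library size alone, other filters, only the groups compared, limma 3.58.1 on log2(TPM + 0.5), a replicate block, leaving out each culture, and coding transcripts only, the last added after seeing the data.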

Additional observations from a re-analysis of the deposited data

Results flagged for a closer look

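In 5 of 48 groups of 5 cultures that were checked, 1 culture lay far from the other 4 by Dixon's criterion, which chance alone meets in about 1 in 20 groups. Slc13a5 had 2.71 CPM in replicate 5 at 100 ng/ml, against 1.75 to 2.01 in the other 4. The share of Slc13a3-201 in the reads of Slc13a3 was 40.2% in replicate 2 of the unstimulated cultures, against 17.3 to 23.6%. Astrocyte markers summed to 3839 TPM in replicate 4 of the unstimulated cultures, against 4193 to 4298, and to 4262 TPM in replicate 3 at 100 ng/ml, against 4587 to 4718. Markers of ependyma and choroid plexus summed to 1546 TPM in replicate 1 at 30 ng/ml, against 1088 to 1159. No culture was low or high for Acod1 or for the gene total of Slc13a3 by this criterion.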

How the results depend on the processing

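The counts of related genes that passed (20, 17 and 7 for 100 ng/ml, 30 ng/ml and 100 against 30 ng/ml) were 15 to 23, 14 to 23 and 6 to 9 over 23 alternatives, within 1.5 times the reported counts. With a replicate block, for which the numbers gave no support (same-number correlations -0.183 to 0.264, 5 of 15 cultures closest to their own number), they were 20, 18 and 7. Acod1 and Slc13a3 were higher with IL-12 under each of the 24 alternatives, coding transcripts included. On log2(TPM + 0.5) the log2 fold change of Acod1 was 2.15 at 100 ng/ml and 1.59 between concentrations, the same with coding transcripts only, and that of Slc13a3 was 1.04 and 0.64. On that scale Slc13a3 no longer passed at 30 ng/ml or between concentrations. Its short retained-intron transcripts held a mean of 55.4% of the gene's TPM without IL-12 and 35.8% at 100 ng/ml, and with coding transcripts only its values were within the replicate spread of those reported. For Slc13a5 at 30 ng/ml, coding transcripts only gave -0.045 in place of 0.18. The count over all genes moved more: from 1500 to 757 at 100 ng/ml, 1209 to 772 at 30 ng/ml and 89 to 33 between concentrations with TPM, to 946 with only the groups compared at 100 ng/ml, and to 241 between concentrations with DESeq2. Leaving out 1 culture gave 940 (unstimulated replicate 5), 946 (unstimulated replicate 1), 949 and 953 (replicates 3 and 1 at 100 ng/ml) and 2932 (replicate 2 at 100 ng/ml) at 100 ng/ml. At 30 ng/ml it gave 673 and 794 (unstimulated replicates 3 and 4) and 740 and 754 (replicates 1 and 5 at 30 ng/ml), and between concentrations 38 to 147. The cause was not tested. With library size alone, 890 of 1411 calls at 30 ng/ml were higher, against 639 of 1209. No marker difference passed under any alternative, which 18 tests of 5 or fewer cultures a group made likely and which says nothing about stability. Slc13a5 rested on 35 to 93 reads per culture, and the part of depth in its missing call was not tested.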
